A study of Mus musculus with 18 samples.

Results

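The liver clock drives a set of output genes, and 9 of them are described here: Usp2, which encodes a deubiquitinase; Dbp, Tef and Hlf, the activators of the PAR bZIP family; Nfil3, a bZIP repressor; Bhlhe40 and Bhlhe41, repressors also known as DEC1 and DEC2; Wee1, a kinase that restrains entry into mitosis; and Tsc22d3, which encodes the glucocorticoid-induced protein GILZ. They were found by symbol: 17 probe sets carry 1 of these 9 symbols alone, of 22690 probe sets on the array, and the 9 genes stand among 12394 genes measured. Each gene was followed through its brightest probe set on average. Values are log2 expression, on which a difference of 1 is a doubling of the signal.

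In the liver, CLOCK and BMAL1 (the Arntl product) bind E-boxes and switch on clock output genes, and the PER and CRY proteins repress them in a daily cycle. The PAR bZIP proteins DBP, TEF and HLF carry the rhythm on to genes of metabolism and detoxification through D-boxes, where NFIL3 acts as a repressor. Usp2 is rhythmic in many mouse tissues, and its protein removes ubiquitin from clock proteins. Tsc22d3 follows glucocorticoid as well as the clock, and Bhlhe40 and Bhlhe41 feed back on the E-boxes.

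Livers of male C57BL/6J mice aged 10 to 16 weeks were measured, 1 array per mouse and 3 mice per group. The groups were mice labelled as liver Fxr knockout and Cre-positive (liver KO), mice that lack Fxr in the whole body (WB KO), and wild-type mice (WT). Each genotype received GW4064, a synthetic agonist of the bile acid receptor FXR, at 150 mg/kg, or vehicle, by oral gavage. All 18 mice were dosed 2 times, in the evening and in the morning, and the livers were taken 2 hours after the last dose, so that each gene was read at a single time of day. The labels do not name the promoter that drives Cre, and the WT mice are not described as floxed littermates. The study's methods describe the WT mice with other doses, an overnight fast and another array type, so dose and feeding are known from the labels only. The mice were kept on a daily light-dark cycle, and the labels do not say in which order they were killed.

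Nr1h4, which encodes FXR, read 3.98 to 4.69 on the 12 KO arrays, against 8.94 to 9.15 in WT livers given GW4064 and 8.83 to 9.39 in WT livers given vehicle. The hepatocyte marker Alb read 14.78 to 14.97 on all 18 arrays. Array medians lay between 5.96 and 6.00. The spread of relative log expression (each array's interquartile range around the gene medians) was 0.130 to 0.255, widest in WT GW4064 replicate 1 and WB KO GW4064 replicate 3. A sample of bulk liver cannot tell fewer cells of a type from less RNA per cell. Within-group SD was large for several of the genes: pooled over the 6 groups it was 0.62 for Dbp, 0.35 for Nfil3 and for Bhlhe40, 0.32 for Wee1 and 0.30 for Usp2, against 0.13 for the median gene. It was 0.21 for Tsc22d3, 0.18 for Hlf, 0.17 for Tef and 0.10 for Bhlhe41.

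The genes lie apart on the genome (GRCm38.p6): Usp2 at chr9:44067021-44095627, Tef at chr15:81802673-81826863, Dbp at chr7:45705100-45710203, Hlf at chr11:90336535-90390917 and Tsc22d3 at chrX:140539528-140600522. The regions just upstream of the gene starts are shown for Tef and for Usp2. On the brightest probe sets, Tef values ran closest to those of Usp2 among the 9 genes. RefSeq promoter windows on GRCm38.p6 were at hand for 7 of the 9 genes, at 10 starts, and not for Bhlhe40 and Wee1. The E-box CACGTG, which reads the same on both strands, lay in the 250 bases before 3 of the 10 starts: both Tef starts and Bhlhe41, at 127, 138 and 153 bases upstream of the start. It lay in 6.02% of all 32851 windows of this length. The D-box letters TTACGTAA or TTATGTAA, searched on both strands, were in none of the 10 windows and in 0.931% of all windows. The letters GGTCA and TGACC with 1 base between them, an inverted repeat that FXR binds, were in none of the 10 and in 0.0335% of all. A match here is a match of letters, not a measured site. The windows below lie on the plus strand, and capitals mark the E-box. The second Tef start and the Usp2 start lie inside the span of the gene, at alternative starts, and this Usp2 window holds no E-box. The region before the outer end of the Usp2 span, at chr9:44067021, was not among the windows and was not searched.
Tef, chr15:81802423-81802672: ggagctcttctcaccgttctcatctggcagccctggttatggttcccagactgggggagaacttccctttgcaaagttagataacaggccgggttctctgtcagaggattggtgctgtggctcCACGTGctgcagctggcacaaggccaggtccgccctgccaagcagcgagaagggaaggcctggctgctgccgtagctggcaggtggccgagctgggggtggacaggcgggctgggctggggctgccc
Tef, chr15:81811164-81811413: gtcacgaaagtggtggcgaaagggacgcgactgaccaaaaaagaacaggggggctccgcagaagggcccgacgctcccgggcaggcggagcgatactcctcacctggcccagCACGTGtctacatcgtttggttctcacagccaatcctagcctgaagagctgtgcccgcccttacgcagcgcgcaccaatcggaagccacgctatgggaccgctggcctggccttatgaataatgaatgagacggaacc
Usp2, chr9:44084670-44084919: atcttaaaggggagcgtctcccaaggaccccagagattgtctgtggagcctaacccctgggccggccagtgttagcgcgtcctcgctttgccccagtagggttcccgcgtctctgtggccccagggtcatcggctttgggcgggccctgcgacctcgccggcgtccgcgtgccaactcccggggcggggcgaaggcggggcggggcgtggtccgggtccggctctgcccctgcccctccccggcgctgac

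A moderated F test over the 6 groups (limma, p-values adjusted by Benjamini-Hochberg over 12394 genes, threshold 0.05) passed for 5 of the 9 genes, where 6.08% of all genes passed. These were Usp2 (adjusted p = 6.4e-05), Tef (0.0028), Tsc22d3 (0.018), Hlf (0.025) and Dbp (0.0499). Bhlhe40, Wee1, Bhlhe41 and Nfil3 had adjusted p-values of 0.316 to 0.597. Leaving out 1 array at a time gave 2 to 5 passing genes, where 531 to 985 of all genes passed. It gave 2 without WT vehicle replicate 1, and 3 without WT vehicle replicate 3 or any 1 of the liver KO GW4064 arrays, and Usp2 and Tef passed in each of these.

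**Figure D1:**
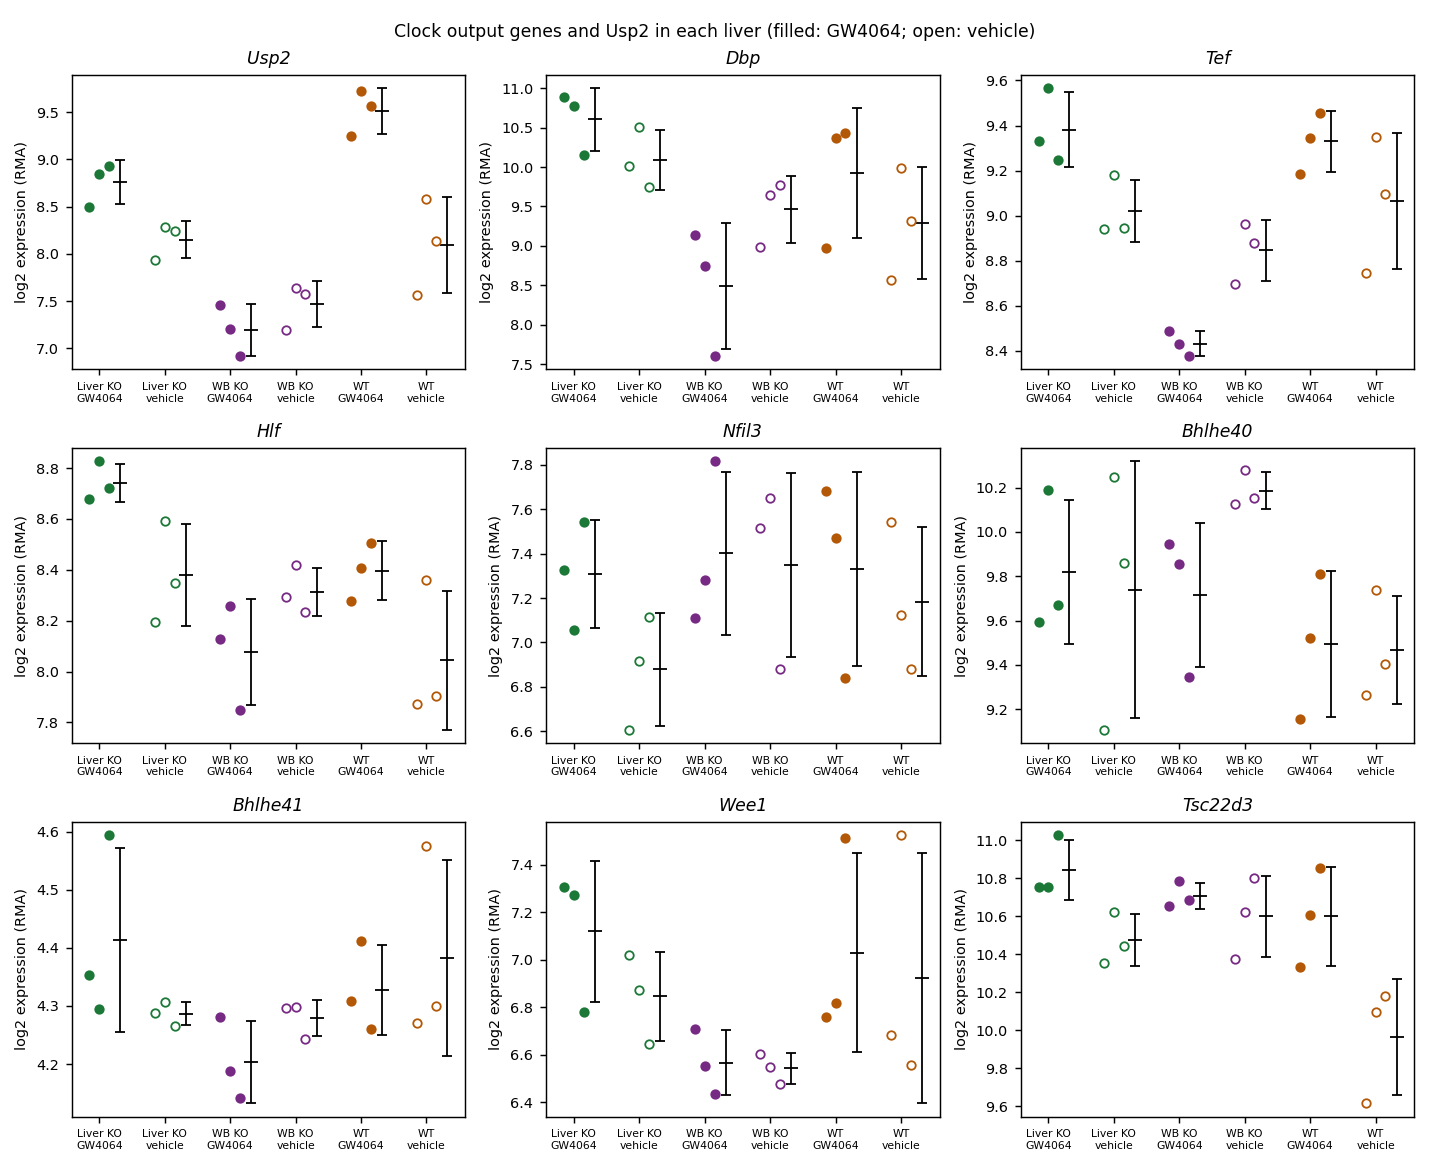
Log2 expression of the 9 genes (y axis, 1 panel per gene, scales differ) in the 6 groups (x axis), with 1 point per array, filled for GW4064 and open for vehicle, and bars for the mean and SD of 3 arrays. Usp2 in WT livers given GW4064 sits between 9.24 and 9.72, above every other array, and Tef in WB KO livers given GW4064 sits between 8.38 and 8.49, below every other array.

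Usp2 was higher in WT livers given GW4064 than in WT livers given vehicle. It read 9.24, 9.72 and 9.57 in WT livers given GW4064, and 7.57, 8.58 and 8.14 in WT livers given vehicle (replicates 1 to 3). The groups did not overlap, and each GW4064 array was above the highest vehicle array. The difference was 1.42 ± 0.22 (standard error), a 2.67-fold higher level, with a 95% interval of 0.96 to 1.87 (limma, adjusted p = 0.033). Of the 9 genes, Usp2 was the only one to pass here, where 0.194% of all genes did. At an unadjusted p under 0.05, Usp2, Hlf and Tsc22d3 were counted, 3 of 9, where 12.6% of all genes were. The call was lost without WT vehicle replicate 1 (1.15, adjusted p = 0.072), WT vehicle replicate 3 (1.44, 0.094) or WT GW4064 replicate 2 (1.31, 0.069). With the difference unchanged, it was also lost without 1 of 4 KO arrays (liver KO vehicle 3, liver KO GW4064 3, WB KO vehicle 3 or WB KO GW4064 2), at adjusted p-values of 0.052 to 0.056. A fit to the 2 WT groups alone gave an adjusted p of 0.359, and over the alternatives run the adjusted p ranged from 0.0052 to 0.706. The second Usp2 probe set gave 1.73 ± 0.26 (adjusted p = 0.027 over all probe sets).

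In liver KO livers, Usp2 read 8.50, 8.85 and 8.93 with GW4064 and 7.93, 8.28 and 8.24 with vehicle. The ranges did not overlap, at a difference of 0.61 ± 0.22 that missed the threshold over all genes (unadjusted p = 0.012, adjusted p = 0.875). In WB KO livers Usp2 read 7.46, 7.20 and 6.92 with GW4064 and 7.19, 7.63 and 7.58 with vehicle, which overlap, at a difference of -0.28 ± 0.22 (adjusted p = 0.892). The second Usp2 probe set gave -0.03 ± 0.26 in WB KO livers and 0.64 ± 0.26 in liver KO livers, so a lower mean with GW4064 in WB KO rests on 1 of the 2 probe sets. The GW4064 effect in WB KO minus that in WT was -1.69 ± 0.30, with a 95% interval of -2.33 to -1.05 (unadjusted p = 3.8e-05), and that in liver KO minus WT was -0.81 ± 0.30 (unadjusted p = 0.017). Neither difference of effects passed over all genes, with adjusted p-values of 0.193 and 0.589. No gene of the 12394 passed for either (0%), and 8.21% and 7.46% of all genes were under an unadjusted 0.05. Without WT vehicle replicate 2 the first was -1.94 and passed (adjusted p = 0.031).

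The order of the 6 group means of Usp2 was WT with GW4064 (9.51 ± 0.24, SD, n = 3), liver KO with GW4064 (8.76 ± 0.23), liver KO with vehicle (8.15 ± 0.19), WT with vehicle (8.10 ± 0.51), WB KO with vehicle (7.47 ± 0.24) and WB KO with GW4064 (7.19 ± 0.27). The first 3 of these ranges were apart from each other. Each of the other ranges overlapped the next one down. GW4064-treated WB KO livers were 4.99-fold lower in Usp2 than GW4064-treated WT livers, a difference of -2.32 ± 0.22 (adjusted p = 2.7e-05). It passed on leaving out each array in turn. The unpaired test of the methods did not pass once adjusted over all genes (adjusted p = 0.247), a step that the methods do not state. With vehicle, WB KO minus WT was -0.63 ± 0.22 (adjusted p = 0.200) and WB KO minus liver KO -0.68 ± 0.22 (adjusted p = 0.182). Liver KO minus WT was -0.75 ± 0.22 with GW4064 (adjusted p = 0.109), and 0.06 ± 0.22 with vehicle (adjusted p = 0.951). With GW4064, Usp2 and Hlf were the 2 of 9 genes without overlap between liver KO and WT, where 17.8% of all genes did not overlap. Usp2 was lower and Hlf higher in liver KO, and Hlf differed by 0.35 ± 0.13 (adjusted p = 0.248). The second Hlf probe set gave 0.10 ± 0.12, with overlap. With vehicle, Usp2 and Wee1 were the 2 without overlap between WB KO and liver KO, both lower in WB KO, where 21.4% of all genes did not overlap. The second Wee1 probe set gave -0.07 ± 0.22 there, with overlap.

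The rest of the gene family of Usp2 was read as well. None of 38 other measured ubiquitin-specific protease genes passed in any of the comparisons. Their median GW4064 difference was 0.03 in WT, 0.01 in liver KO and -0.02 in WB KO livers, against -0.004, -0.002 and -0.01 for all genes. Between GW4064-treated WB KO and WT livers it was also -0.02, the median of all genes.

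Of the PAR bZIP genes, Tef was lower in WB KO livers than in WT livers when both were given GW4064. Tef, an activator at D-boxes, read 8.49, 8.43 and 8.38 in WB KO livers given GW4064, and 9.19, 9.35 and 9.46 in WT livers given GW4064. The ranges were far apart, at a difference of -0.90 ± 0.13, 1.86-fold lower in WB KO (limma, adjusted p = 0.00091). Usp2 and Tef were the 2 genes of the 9 that passed in this comparison, both lower in WB KO, where 4.64% of all genes passed and 2.01% were lower. Tef stayed past the threshold on leaving out each array in turn, but not with the unpaired test of the methods once adjusted over all genes (adjusted p = 0.247). Its other probe sets gave -0.46 ± 0.18 (adjusted p = 0.185) and 0.05 ± 0.12 (adjusted p = 0.876, for a probe set that read 4.20 to 4.83), and the mean of the 3 gave -0.44 (adjusted p = 0.052).

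Dbp, the PAR bZIP gene with the widest daily swing in mouse liver, read 9.14, 8.74 and 7.60 in WB KO livers given GW4064, and 8.97, 10.37 and 10.42 in WT livers given GW4064. The groups overlapped through WT replicate 1. The difference was -1.43 ± 0.43 (adjusted p = 0.073). Without WT GW4064 replicate 1 it was -1.90 and passed (adjusted p = 0.026), and the second Dbp probe set passed with all arrays (-1.50 ± 0.37, adjusted p = 0.032). Hlf read 8.13, 8.26 and 7.85 in WB KO livers and 8.28, 8.41 and 8.51 in WT livers given GW4064. These did not overlap, by a narrow margin, at -0.32 ± 0.13 (adjusted p = 0.203). Groups did not overlap for 4 of the 9 genes in this comparison (Usp2, Tef, Hlf and Wee1, all lower in WB KO), where 19.8% of all genes did not overlap and 11.4% were apart and lower.

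The response of Tef, Dbp and Hlf to GW4064 within each genotype did not pass the test anywhere. In WT livers Tef was 0.27 ± 0.13 (adjusted p = 0.420), Hlf 0.35 ± 0.13 (adjusted p = 0.281) and Dbp 0.63 ± 0.43 (adjusted p = 0.600) on the log2 scale, GW4064 minus vehicle. Tef read 9.19, 9.35 and 9.46 with GW4064 and 8.75, 9.35 and 9.10 with vehicle. Hlf read 8.28, 8.41 and 8.51 with GW4064 and 7.87, 8.36 and 7.90 with vehicle, and Dbp read 8.97, 10.37 and 10.42 with GW4064 and 8.57, 9.98 and 9.32 with vehicle. The groups overlapped for all 3 genes. The Dbp and Tef values depended on single arrays: without WT vehicle replicate 1 they were 0.27 for Dbp and 0.11 for Tef, and without WT GW4064 replicate 1 the Dbp difference was 1.11, with an adjusted p of 0.336 or more for Dbp under every alternative run.

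In liver KO livers, Tef read 9.33, 9.57 and 9.25 with GW4064 and 8.94, 9.18 and 8.95 with vehicle, and Hlf read 8.68, 8.83 and 8.72 with GW4064 and 8.19, 8.59 and 8.35 with vehicle. Both were apart from vehicle without overlap, at 0.36 ± 0.13 for each (adjusted p = 0.875 and 0.876). The second Hlf probe set gave 0.05 ± 0.12, with overlap, and the other Tef probe sets gave 0.25 ± 0.18 and 0.30 ± 0.12. Dbp read 10.89, 10.77 and 10.15 with GW4064 and 10.02, 10.50 and 9.75 with vehicle, which overlap. Usp2, Tef, Hlf and Tsc22d3 were the 4 of 9 genes without overlap here, all higher with GW4064, where 12.2% of all genes did not overlap and 6.11% were apart and higher. No gene of the 12394 passed in liver KO livers (0%). At an unadjusted p under 0.05 the same 4 genes and 622 genes in all (5.02%) were counted, and the unpaired test that the methods describe gave 0 genes after adjustment.

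In WB KO livers the PAR bZIP genes had means below vehicle. Tef read 8.49, 8.43 and 8.38 with GW4064 and 8.70, 8.96 and 8.88 with vehicle, without overlap, at -0.41 ± 0.13 (unadjusted p = 0.0060, adjusted p = 0.784). The other Tef probe sets gave -0.08 ± 0.18 and 0.09 ± 0.12. Dbp read 9.14, 8.74 and 7.60 with GW4064 and 8.98, 9.64 and 9.77 with vehicle, at -0.97 ± 0.43 (adjusted p = 0.785). Hlf read 8.13, 8.26 and 7.85 with GW4064 and 8.29, 8.42 and 8.23 with vehicle, at -0.24 ± 0.13 (adjusted p = 0.845). The Dbp and Hlf groups overlapped. The lowest Dbp value of all 18 arrays, 7.60, was in WB KO GW4064 replicate 3. Without that array and WT GW4064 replicate 1, Dbp was -0.53 and Tef -0.39. Tef and Bhlhe40 were the 2 of 9 genes without overlap, both lower, where 10.3% of all genes did not overlap and 5.95% were apart and lower. No gene passed over all genes (0%), 775 genes (6.25%) were under an unadjusted 0.05, Tef and Dbp among them, and the unpaired test of the methods gave 0 genes after adjustment.

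**Figure D2:**
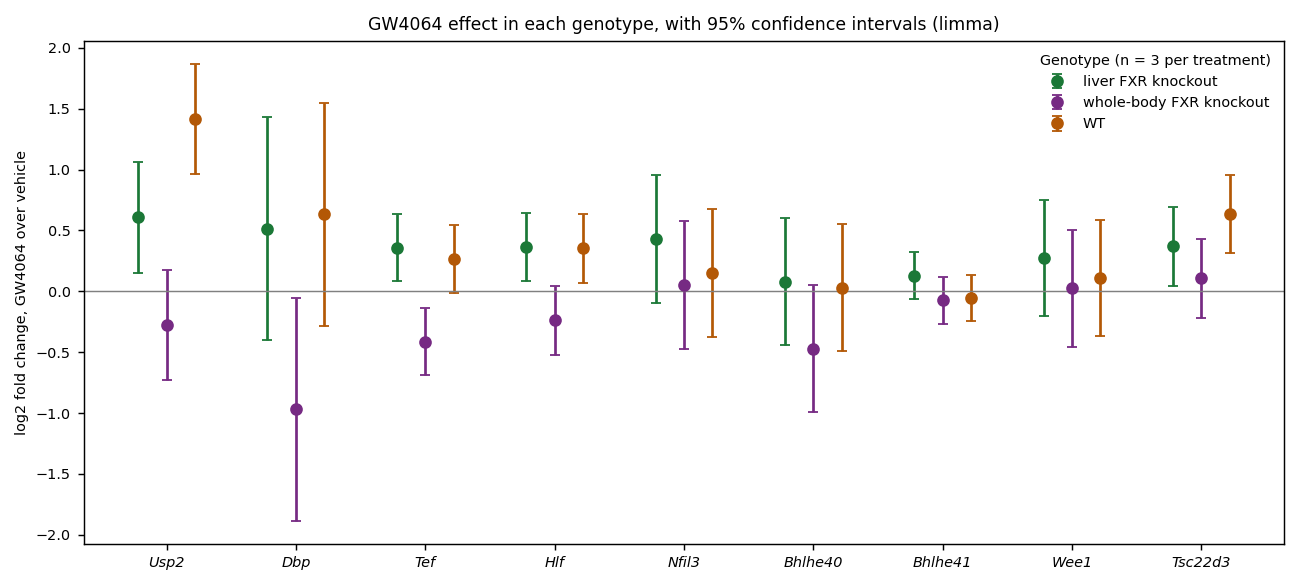
Log2 fold change of GW4064 over vehicle (y axis) for the 9 genes (x axis) in liver KO, WB KO and WT livers, with 95% confidence intervals from limma and 3 arrays per treatment. The interval of Usp2 in WT livers, 0.96 to 1.87, is the one that goes with a passing test, and 6 of the 9 points are below 0 in WB KO livers, those of Usp2, Dbp, Tef and Hlf among them.

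The effects of GW4064 in WB KO minus those in liver KO livers were -0.77 ± 0.19 for Tef (unadjusted p = 0.00069, adjusted p = 0.533), -0.60 ± 0.19 for Hlf (adjusted p = 0.871), -1.48 ± 0.61 for Dbp (adjusted p = 0.970) and -0.88 ± 0.30 for Usp2 (adjusted p = 0.937). Minus those in WT they were -0.68 ± 0.19 for Tef (adjusted p = 0.424), -0.59 ± 0.19 for Hlf (adjusted p = 0.432) and -1.60 ± 0.61 for Dbp (adjusted p = 0.529). All 9 genes had a value below 0 in both contrasts, where 48.0% and 48.4% of all genes were above 0. In WB KO minus WT, Nfil3 (-0.10 ± 0.35), Bhlhe41 (-0.02 ± 0.13) and Wee1 (-0.08 ± 0.32) lay within 1 standard error of 0. Both contrasts use the same WB KO arrays and are not independent. Several of the 9 genes also varied together across arrays, so they do not count as 9 separate results. On other probe sets the values were smaller for Hlf, at -0.15 ± 0.16 in WB KO minus liver KO and -0.37 ± 0.16 in WB KO minus WT. For Tef they were -0.33 ± 0.26 and -0.21 ± 0.18 against liver KO, and -0.33 ± 0.26 and 0.12 ± 0.18 against WT. None of the 9 passed, as no gene did (0%), and an unadjusted p under 0.05 was reached by 4 of 9 against liver KO (4.87% of all genes) and 5 of 9 against WT (8.21%).

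Tsc22d3, the glucocorticoid-induced gene, read 10.33, 10.61 and 10.86 in WT livers given GW4064, against 9.62, 10.09 and 10.18 in WT livers given vehicle. The WT groups did not overlap, and on this probe set the WT vehicle arrays were the lowest of the 18. The difference was 0.63 ± 0.15 (unadjusted p = 0.00070, adjusted p = 0.111). Usp2 and Tsc22d3 were the 2 of 9 genes without overlap between WT treatments, where 14.7% of all genes did not overlap and 7.06% were apart and higher. All 3 Tsc22d3 probe sets were higher with GW4064, by 0.63, 0.63 and 0.35.

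With vehicle, Tsc22d3 read 10.38, 10.62 and 10.80 in WB KO and 10.35, 10.62 and 10.45 in liver KO livers, all above the WT vehicle arrays. WB KO minus WT was 0.64 ± 0.15 (adjusted p = 0.0535), close to the threshold, which it passed under 8 other settings given in the closing section. Liver KO minus WT was 0.51 ± 0.15 (adjusted p = 0.141), and Tsc22d3 was the 1 gene of the 9 without overlap there, where 20.3% of all genes did not overlap. On another Tsc22d3 probe set these groups overlapped, with WT vehicle replicate 3 at 9.59 and liver KO vehicle replicate 1 at 9.45. With vehicle, none of the 9 genes passed in WB KO against WT (1.14% of all genes), liver KO against WT (0.879%) or WB KO against liver KO (0.678%), and with GW4064 none passed in liver KO against WT (1.06%). At an unadjusted p under 0.05 there were 3, 2, 1 and 2 of the 9 genes in these 4 comparisons, where 13.3%, 12.6%, 12.2% and 14.0% of all genes were counted, and the unpaired test of the methods called none of the 9 after adjustment in any of them. GW4064 minus vehicle was 0.37 ± 0.15 in liver KO (adjusted p = 0.938) and 0.11 ± 0.15 in WB KO livers (adjusted p = 0.947).

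Bhlhe40, the repressor DEC1, read 10.13, 10.28 and 10.15 in WB KO livers given vehicle, and 9.26, 9.74 and 9.40 in WT livers given vehicle. The groups did not overlap, at 0.72 ± 0.25 (adjusted p = 0.199), and a fit to these 2 groups alone passed (adjusted p = 0.036). Bhlhe40 and Tsc22d3 were the 2 of 9 genes without overlap in this comparison, where 19.6% of all genes did not overlap. With GW4064, Bhlhe40 read 9.95, 9.85 and 9.34 in WB KO livers, lower than with vehicle by 0.47 ± 0.25 in the means (adjusted p = 0.830), and 9.15, 9.52 and 9.81 in WT livers. Liver KO livers read 9.59, 10.19 and 9.67 with GW4064 and 9.11, 10.25 and 9.86 with vehicle, so that the range with GW4064 lay inside that with vehicle.

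Nfil3, Wee1 and Bhlhe41 gave no passing difference. Nfil3, the D-box repressor, lay between 6.61 and 7.81 over all arrays, and its groups overlapped in each GW4064 comparison, with differences of 0.43 ± 0.25 in liver KO, 0.05 ± 0.25 in WB KO and 0.15 ± 0.25 in WT livers. Wee1, the mitotic kinase, read 6.71, 6.55 and 6.44 in WB KO livers given GW4064, against 6.76, 6.82 and 7.51 in WT livers given GW4064. These were apart, at -0.46 ± 0.23 (adjusted p = 0.280). The second Wee1 probe set gave -0.29 ± 0.22, with overlap. Bhlhe41, the repressor DEC2, read 4.14 to 4.59 on all 18 arrays, within the 3.98 to 4.69 that the Nr1h4 probe set gave where Nr1h4 is deleted (the values carry no detection call).

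**Figure D3:**
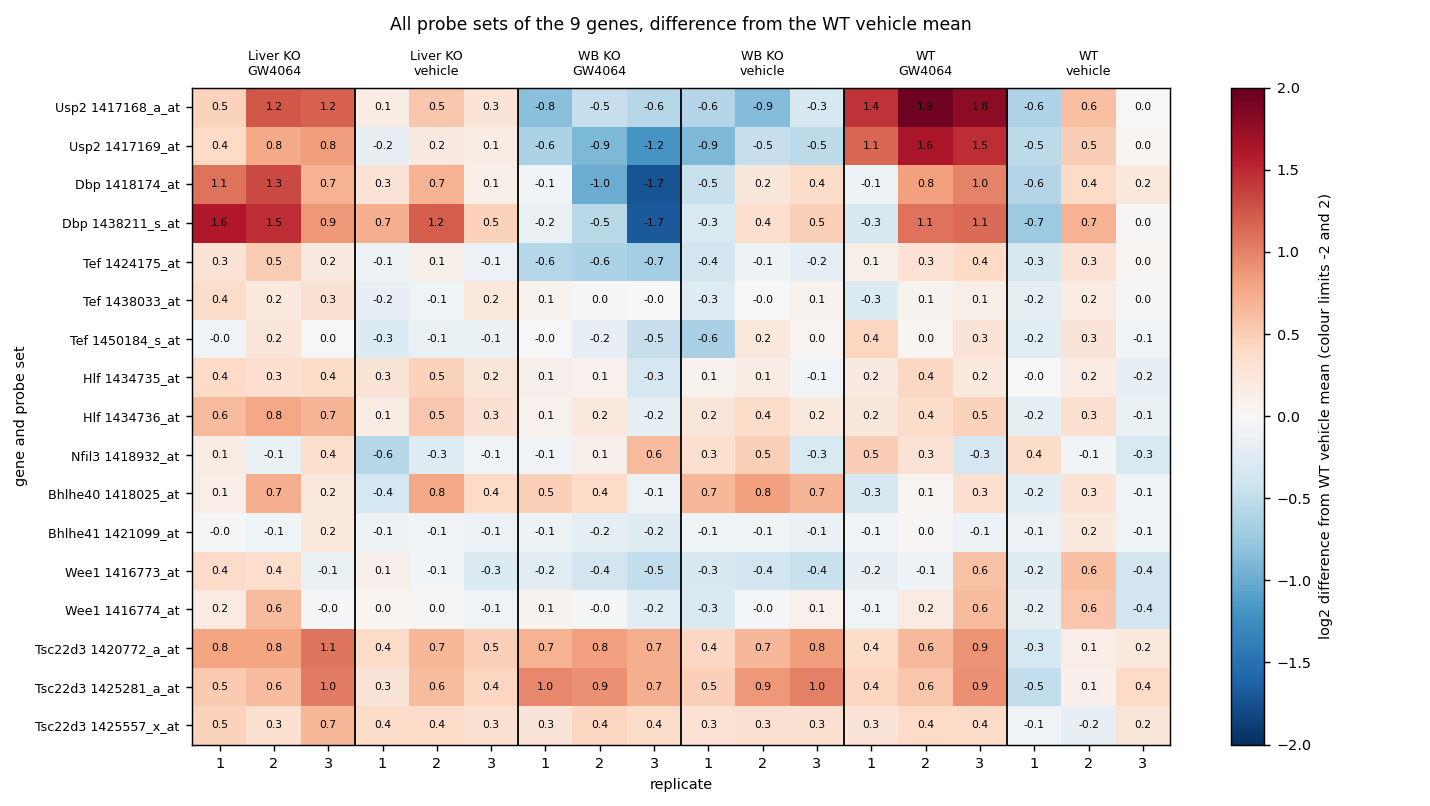
Log2 difference from the WT vehicle mean for the 17 probe sets of the 9 genes (rows) on the 18 arrays (columns, replicates 1 to 3 of each group), in numbers and colour. Both Usp2 rows are highest in WT livers given GW4064 and both Dbp rows are lowest in WB KO GW4064 replicate 3, whereas the 3 Tef rows differ from each other.

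Array by array, Usp2 ran with Tef, each on its brightest probe set. Over the 18 arrays, Pearson's r between their log2 values was 0.88 (Spearman's rho 0.92), which placed Tef at rank 3 of 12393 genes, after Tmem219 and Scarb2 (both 0.88) and before Cadps2 and Dnajb6 (both 0.82). The other genes of the set had r of 0.67 (Dbp), 0.61 (Wee1), 0.58 (Hlf), 0.53 (Bhlhe41), 0.17 (Tsc22d3), -0.13 (Nfil3) and -0.15 (Bhlhe40). Bhlhe41 read only 4.14 to 4.59, within the values of the deleted Nr1h4, which limits what its r can show. These correlations share the same 18 arrays and the group differences, and are a description with no test. The other Tef probe sets gave other values above and were not compared with Usp2 in this way. Without the 3 WT GW4064 arrays, Tef was at rank 1 (r = 0.93, 15 arrays) and Dbp at rank 13 (r = 0.84). The plot of Usp2 against Tef shows the 3 WT GW4064 arrays above the rest: at Tef values of 9.19 to 9.46 they read 9.24 to 9.72 in Usp2, whereas the liver KO GW4064 arrays, at Tef values of 9.25 to 9.57, read 8.50 to 8.93. Between GW4064-treated WB KO and WT livers, Cadps2 was -1.59 ± 0.20, Scarb2 -0.51 ± 0.09, Tmem219 -0.38 ± 0.08 and Dnajb6 -0.28 ± 0.08, given as a description because these genes were picked for their likeness to Usp2 on the same arrays.

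Deviations within groups were compared as well. On deviations from the 6 group means, Tef had r = 0.79 with Usp2 (rank 9 of 12393), Dbp and Hlf 0.72, Tsc22d3 0.69, Bhlhe40 0.66, Bhlhe41 0.63 and Wee1 0.32, whereas Nfil3 had -0.37. The low level of Bhlhe41 limits its r here too. The 5 highest were Ranbp3 (0.89), Egfl7, Ankrd61, Gpank1 and Dmac2 (0.81 to 0.82). Of the 9 genes, 7 were lowest in replicate 1 of the WT vehicle group, and 7 were highest in replicate 2. In liver KO vehicle livers 6 were lowest in replicate 1 and 7 highest in replicate 2, and in WB KO vehicle livers 5 and 6. With GW4064, 7 of 9 were lowest in WT replicate 1, and 7 of 9 in WB KO replicate 3. In liver KO livers given GW4064 no such order was seen, with 4, 2 and 3 genes lowest in replicates 1 to 3. The order of Nfil3 was often the reverse: it was the highest in WT replicate 1 of both treatments and in WB KO GW4064 replicate 3. How many of all genes share these orders was not counted. WT GW4064 replicate 1 and WB KO GW4064 replicate 3 were also the arrays of widest relative log expression. The labels do not say what a replicate number stands for.

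**Figure D4:**
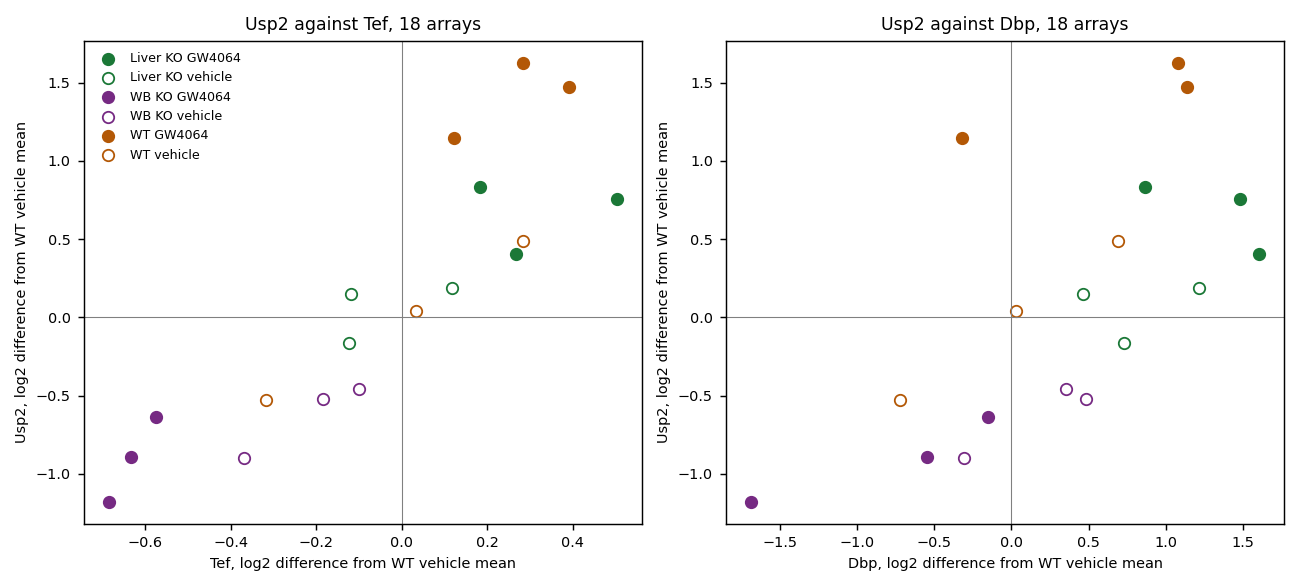
Usp2 (y axis) against Tef and Dbp (x axes), each as the log2 difference from the WT vehicle mean, with 1 point per array, coloured by genotype and filled for GW4064. On the brightest probe set of each gene, Usp2 follows Tef over the 18 arrays (r = 0.88), with the 3 WT GW4064 arrays on top. It follows Dbp less closely (r = 0.67).

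The core clock genes that drive these outputs were read on the same arrays. Of 5 measured activators, Arntl and Npas2 were higher in WB KO than in WT livers given GW4064, by 1.98 ± 0.25 (adjusted p = 0.00023) and 1.27 ± 0.20 (adjusted p = 0.0017). Arntl read 8.00, 8.17 and 8.39 in WB KO livers given GW4064, and 6.35, 6.23 and 6.03 in WT livers given GW4064. The ranges were far apart, in the opposite sense to Usp2, Tef and Dbp. Of 7 measured repressors, Per2 was lower by 1.09 ± 0.27 (adjusted p = 0.026), at 6.08, 5.65 and 5.49 in WB KO and 6.78, 6.46 and 7.23 in WT livers given GW4064. The median of the activators was 0.19 and that of the repressors -0.30 in this comparison, against -0.02 for all genes. Of all genes, 4.64% passed in it. No activator or repressor passed for GW4064 against vehicle in any genotype. Within WT livers Arntl was -0.95 ± 0.25 and Per2 1.19 ± 0.27 (adjusted p = 0.128 and 0.087), and within WB KO livers Arntl was 0.70 ± 0.25 and Per2 0.09 ± 0.27 (adjusted p = 0.784 and 0.979).

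Targets of the PAR bZIP proteins, known or reported, were listed as well. Of 8 measured, 1 passed between GW4064-treated WB KO and WT livers, and it was higher: Cyp7a1, the rate-limiting enzyme of bile acid synthesis, by 3.82 ± 0.69 (adjusted p = 0.0043). Cyp7a1 is also repressed through FXR and stands on the list of FXR response genes too. The median of the 8 was 0.06, against -0.02 for all genes, and 4.64% of all genes passed in that comparison. With vehicle, Alas1, the first enzyme of haem synthesis, was lower in WB KO livers than in WT livers by 0.91 ± 0.21 (adjusted p = 0.038) and lower than in liver KO livers by 1.44 ± 0.21 (adjusted p = 0.0067). None of the 8 passed for GW4064 against vehicle.

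Of 21 other rhythmic liver genes, 3 passed between GW4064-treated WB KO and WT livers, where 4.64% of all genes passed. Avpr1a, a vasopressin receptor, was higher by 0.78 ± 0.17, and Pnpla2, a triglyceride lipase, and Tspan4, a tetraspanin, were lower by 0.53 ± 0.13 and 0.82 ± 0.22. The median of the 21 was -0.25, against -0.02 for all genes, and 8 of them were above 0. Of 15 measured glucocorticoid-responsive genes, 2 were higher in this comparison, Sgk1 by 2.26 ± 0.36 and Dusp1 by 1.58 ± 0.39, and Pck1 was lower by 0.61 ± 0.16. None of the 15 passed for GW4064 against vehicle in WT livers, with a median of 0.27, against -0.004 for all genes. Of 11 genes of glucose and fasting metabolism, G6pc, Igfbp1 and Pdk4 were higher between GW4064-treated WB KO and WT livers by 1.89 ± 0.34, 2.23 ± 0.44 and 1.81 ± 0.23, and Pck1, on this list too, was lower. None of 11 cell cycle partners of Wee1 passed in any of the comparisons.

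Other readouts moved between the same arrays. In WT livers given GW4064, the median of 23 acute-phase genes stood 1.24, 0.85 and 0.22 above the WT vehicle mean in replicates 1 to 3, with WT vehicle arrays at -0.07 to 0.03. Lcn2 and Il1r1 passed as higher between the WT treatments (2 of 23), where 0.194% of all genes passed. The median of 4 neutrophil markers stood at 1.47, 0.61 and -0.09, of 6 endothelial markers at -0.72, -0.34 and -0.11, and of 6 stellate and fibroblast markers at -0.82, -0.26 and -0.19. WT GW4064 replicate 1 was the farthest from vehicle in each of these lists, and the lowest of its group for 7 of the 9 clock output genes. The latter was not counted over all genes. In WB KO livers given GW4064, the acute-phase medians were -0.01, 0.04 and 0.26, and those of the stellate and fibroblast markers 0.26, 0.34 and 0.35. Of the 23 acute-phase genes, 5 passed as lower between WB KO and WT livers given GW4064 (Il1r1, Orm3, Serpina3n, Saa4 and Itih3), with a median of -0.51, against -0.02 for all genes. Dcn, Col1a1 and Col3a1 of the stellate and fibroblast list passed as higher between WB KO and WT livers given GW4064 (3 of 6). Of all genes, 4.64% passed between these groups. Of the 6 endothelial markers, 1 passed in that comparison, Lyve1. None of the 6 hepatocyte and 6 Kupffer cell and macrophage markers passed between WB KO and WT livers given GW4064. The array medians of the Kupffer cell and macrophage markers still varied. They ran from -0.51 to 0.55 in WT livers given GW4064, -0.12 to 0.09 with vehicle, and 0.14 to 0.74 in WB KO livers given GW4064. The part of these readouts in the values of Usp2, Tef and Dbp was not tested. Without the 2 arrays of widest relative log expression, WT GW4064 replicate 1 and WB KO GW4064 replicate 3, WB KO minus WT with GW4064 was -2.31 for Usp2 (adjusted p = 0.00017) and -0.94 for Tef (adjusted p = 0.0060), and GW4064 minus vehicle in WT was 1.55 for Usp2 (adjusted p = 0.024).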

How the data were processed

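Liver RNA of 18 mice was hybridised to Affymetrix arrays, 1 array per mouse. The authors normalised the arrays with RMA (version not given in the sources used here) and deposited log2 expression values, which were used as deposited. RMA adjusts all arrays to 1 distribution, and with 3 arrays per group precision is limited. Of 22690 probe sets, 20393 carry 1 gene symbol, 691 several and 1606 are unnamed here. Each of 12394 genes was represented by its probe set of highest mean. Group means were fitted with limma 3.58.1 (R 4.3.3) over all 18 arrays (12 residual degrees of freedom), with Benjamini-Hochberg adjustment over all genes and a threshold of 0.05. The fit was tested on simulated data. The genes, the lists and the tests were chosen with earlier results of these data known, and the named genes were the 9 members, the 5 most like Usp2 by each measure and up to 4 passing genes per list. Nothing says that mice came from separate litters, so p-values measure the spread between these mice. The labels do not say what a replicate number marks, and it was not used to pair mice. Alternatives were the fit to the compared groups alone, a trended and robust prior, array weights, 2 other scalings, a filter on the 40% lowest genes, the other probe sets, a replicate block, the t-test of the methods and leaving out arrays. Promoter windows came from RefSeq (GRCm38.p6). Figures were drawn with matplotlib 3.10.9.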

Additional observations from a re-analysis of the deposited data

Results flagged for a closer look

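On the probe sets used, for 4 of the genes every GW4064 array lay above its own vehicle mean in 1 genotype and every GW4064 array lay below it in another. These are called opposite directions here. How many of all genes meet this rule was not counted, so it is not shown to be particular to these genes. For Usp2, the GW4064 effect in WB KO minus that in WT was -1.69 (limma, adjusted p = 0.193), and that in WB KO minus liver KO was -0.885 (adjusted p = 0.937). The WB KO minus liver KO value was -1.48 for Dbp (adjusted p = 0.970), -0.772 for Tef (adjusted p = 0.533) and -0.601 for Hlf (adjusted p = 0.871). The WB KO minus WT value was -0.68 for Tef (adjusted p = 0.424) and -0.589 for Hlf (adjusted p = 0.432). The Usp2 pattern was narrow in WB KO livers, where replicate 1 read 7.46 with GW4064 against a vehicle mean of 7.47. It did not hold on the second Usp2 probe set, on which WB KO livers read 5.23, 5.61 and 5.50 with GW4064 against a vehicle mean of 5.48. On the second Hlf probe set, GW4064-treated WB KO livers read 7.61, 7.60 and 7.18 against a vehicle mean of 7.57, so it failed there too. Neither of the other Tef probe sets showed opposite directions in this sense, whereas the second Dbp probe set did. None of these 7 differences of effects passed over all genes in the fit without a replicate block to all 18 arrays. Groups of 3 arrays are too small to search for single outlying arrays.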

How the results depend on the processing

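Counts here are of the 9 genes past the adjusted threshold. GW4064 against vehicle in WT livers gave 1 with all arrays, 0 with the compared groups only, 0 with the t-test of the methods and 0 to 1 on leaving out each array, and over all genes 24, 0, 0 and 1 to 268. WB KO against WT with vehicle gave 0, but 1 (Tsc22d3) with a trended and robust prior, with array weights, without the 40% lowest genes, without the 2 widest arrays and without WT vehicle replicate 3, WT GW4064 replicate 1 or WT GW4064 replicate 3 (leaving out: 0 to 1), and 1 (Bhlhe40) with the compared groups only. WB KO against liver KO with vehicle gave 0, but 1 (Usp2) with the compared groups only. Over all genes, WB KO against WT with vehicle gave 141 with all arrays and 56 to 193 on leaving out each array. WB KO against liver KO with vehicle gave 84 and 3 to 102 over all genes. Counts over all genes are not given here for the other settings of these comparisons with vehicle. The calls gained under them are therefore not shown to be particular to Tsc22d3, Bhlhe40 or Usp2. WB KO against WT with GW4064 gave 2, 0 with the t-test of the methods, and 2 to 3 on leaving out each array. Over all genes it gave 575, 1 and 262 to 787. The difference of effects WB KO minus WT gave 0, and 0 to 1 on leaving out, and over all genes 0 and 0 to 22. The F test gave 5, 3 with the mean of probe sets, and 2 to 5 on leaving out. Over all genes it gave 753 with all arrays and 531 to 985 on leaving out. At its own threshold, an unadjusted p with a fold limit, the t-test of the methods counted 1 gene for GW4064 in WT (Usp2, of 65 in all), 1 in liver KO (Usp2, of 36) and 0 in WB KO (of 11). With GW4064 it counted 2 between WB KO and WT (Usp2 and Tef, of 253) and 1 between liver KO and WT (Usp2, of 155). With vehicle it counted 2 between WB KO and WT (Bhlhe40 and Tsc22d3, of 174), 1 between WB KO and liver KO (Usp2, of 166) and 0 between liver KO and WT (of 140).

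The cause of these changes was not tested. The fit to compared groups only and the t-test use fewer arrays. No passing value changed sign under any alternative run: of 2833 values of single genes under the alternatives, 2804 kept their side of the threshold, 12 lost it and 17 gained it. Samples of the same replicate number had correlations of -0.23 to 0.34 in their deviations from group means, not over 0.1 in all pairs of any comparison, and every array was closest to its own number in 2 of 8 comparisons (WB KO GW4064 against vehicle, and WB KO against WT with vehicle). With the replicate block, 2 genes (Usp2 and Tsc22d3) passed for GW4064 in WT livers, 1 (Tsc22d3) for liver KO against WT with vehicle, 1 (Tsc22d3) for WB KO against WT with vehicle, and 1 (Usp2, adjusted p = 0.038) for the difference of effects WB KO minus WT. How many of all genes passed with the replicate block is not given here. The calls made with it are therefore not shown to be particular to Usp2 and Tsc22d3. The array values give no detection call, so a low probe set such as that of Bhlhe41 can hide a change.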
